A study of Homo sapiens with 21 samples.

Results

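The 4 adenosine receptor genes, ADORA1, ADORA2A, ADORA2B and ADORA3, were followed through 15 lists of enriched chromatin regions from human melanoma cell lines. The 4 genes were chosen by name out of 19974 protein-coding genes. A region was assigned to a receptor when its midpoint lay in the gene body or within 50 kb of it on hg38, and 522 of 1120474 regions over the 15 lists met that rule. ATAC-seq, which marks open chromatin, had been run on A375-GFP, SKMEL-147, SKMEL-5 and 501mel cells. Acetylation of histone H3 at lysine 27 (K27ac), found at active promoters and enhancers, had been mapped in the same 4 lines. It had also been mapped in A375-shNTC (2 replicates), A375-shH2 and A375-shH3. The insulator protein CTCF had been mapped in 501mel and SKMEL-5, and HA-tagged HOXD13 in A375. All cells had been cultured for 72 h, and doxycycline at 1 µg/ml induced hairpins or overexpression where it was added. The labels leave out which samples that was, what shH2 and shH3 target, which libraries were ChIP-seq or CUT&Tag, or whether a construct was clonal. The series design states that HOXD13 was silenced or overexpressed, and shNTC was read as a non-targeting control. A375-GFP carries a GFP construct by its name. In 501mel, the ATAC regions are named after siNTC, a treatment absent from the label. Every group other than A375-shNTC is 1 library, so no difference below has a replicate check and no test was run. Whether the 2 A375-shNTC replicates are separate cultures is not stated.

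Adenosine builds up outside cells when ATP is degraded, and it is abundant in hypoxic tumours. Its receptors are G protein-coupled: ADORA1 and ADORA3 couple to inhibitory G proteins and lower cyclic AMP, while ADORA2A and ADORA2B couple to stimulatory G proteins and raise it. In tumours ADORA2A is best known for restraining T cells, and ADORA2B, which has a low affinity for adenosine, for angiogenic factor release and myeloid suppression. The lists describe chromatin near these genes and hold no measure of receptor RNA or protein.

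ADORA1 lies at chr1:203127726-203167405 and ADORA3 at chr1:111499429-111503633, inside the gene model of TMIGD3. ADORA2A lies at chr22:24423597-24442357. ADORA2B lies at chr17:15850362-15975746, a model that begins 94.8 kb upstream of the start site given in the promoter table. Distances are in kb from the start site, negative upstream and positive downstream. For ADORA2A they run from its lower gene end, positive towards higher coordinates. The 250 bases upstream of 3 start sites are shown because the receptors differed most plainly there: open chromatin met the start site of ADORA1 and ADORA2B in SKMEL-147 and A375-GFP, and no list had a region within 1 kb of that of ADORA3. The sequences are RefSeq's, on GRCh38.p14, 5′ to 3′ on the gene's strand. Capitals mark matches to the GC box (GGGCGG) or the CCAAT box (CCAAT) on either strand.
ADORA1, chr1:203127476-203127725, plus strand: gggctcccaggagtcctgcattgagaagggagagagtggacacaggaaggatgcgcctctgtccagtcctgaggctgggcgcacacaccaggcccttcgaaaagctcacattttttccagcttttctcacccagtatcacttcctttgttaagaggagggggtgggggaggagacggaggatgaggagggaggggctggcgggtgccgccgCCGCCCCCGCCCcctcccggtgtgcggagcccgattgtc
ADORA2B, chr17:15944880-15945129, plus strand: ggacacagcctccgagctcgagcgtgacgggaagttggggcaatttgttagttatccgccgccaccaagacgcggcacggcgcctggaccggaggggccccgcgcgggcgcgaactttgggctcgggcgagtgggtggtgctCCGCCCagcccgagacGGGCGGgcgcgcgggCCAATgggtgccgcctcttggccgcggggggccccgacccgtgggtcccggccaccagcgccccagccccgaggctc
ADORA3, chr1:111503634-111503883, minus strand: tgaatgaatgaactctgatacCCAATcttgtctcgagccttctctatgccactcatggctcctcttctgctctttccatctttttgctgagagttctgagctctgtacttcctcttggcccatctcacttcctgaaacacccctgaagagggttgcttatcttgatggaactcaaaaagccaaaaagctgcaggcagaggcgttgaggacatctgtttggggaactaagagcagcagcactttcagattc
The ADORA2B window is 75.2% G or C with 33 CG dinucleotides, the ADORA1 window 63.2% with 12, and the ADORA3 window 47.2% with 2. The medians over 15812 protein-coding promoters are 62.4% and 17. ADORA2B holds 2 GC boxes and 1 CCAAT box, ADORA1 holds 2 GC boxes, and ADORA3 holds 1 CCAAT box. Among all promoters, 56.0% hold GGGCGG and 34.4% hold CCAAT in the same 250 bases. No window holds CAATAAA, a HOX-type motif present in 2.67% of promoters and able to overlap a CCAAT box by its first 4 letters. TGACTCA (AP-1, in 3.17%), CACGTG (E-box, in 7.83%) and TGACGTCA (cyclic AMP response element, in 2.32%) had no match in the 3 windows either, which says only that these letters are not there.

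The lists differed in length, from 29176 regions (HOXD13-HA) to 163102 (SKMEL-147 ATAC), and gave no read counts, so depth is unknown and a region that is not listed may still carry signal. The K27ac lists also differed in kind. Among protein-coding start sites, 21.3% in 501mel and 19.4% in SKMEL-147 had a K27ac region within 1 kb, against 46.9% in SKMEL-5 and 52.5% in A375-GFP, and this gap stands beside every comparison of lines here. Of 7 melanocytic genes, 7 had a K27ac region in the gene or within 2 kb in 501mel, 7 in SKMEL-5, 3 in SKMEL-147 and 4 in A375-GFP. Of 4 genes of undifferentiated melanoma the counts were 0, 1, 3 and 4. Keratinocyte, T cell, endothelial and fibroblast genes, 3 of each, had 0 to 2 per line. Among all genes, 42.1% in 501mel, 57.9% in SKMEL-5, 43.1% in SKMEL-147 and 68.2% in A375-GFP had such a region. The melanocytic counts of SKMEL-147 and A375-GFP therefore did not exceed what genes at large showed by any clear margin. Folds are the authors' enrichment over the peak caller's background, used to describe regions within a list. The strongest K27ac region of a list is the one with the highest −log10 q.

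Acetylation near the receptors was heaviest in A375-GFP and lightest in 501mel, and the order of the lines was not the same at every receptor. The A375-GFP list held 91 K27ac regions at the 4 genes, SKMEL-147 31, SKMEL-5 20 and 501mel 5. All 4 receptors had at least 1 region in A375-GFP and SKMEL-147, and 3 of 4 in each of the other lines. Among all protein-coding genes, 84.5% in A375-GFP, 72% in SKMEL-147, 81.2% in SKMEL-5 and 67% in 501mel had one, so presence alone did not mark the receptors. With each line held to its strongest 42115 regions, A375-GFP and SKMEL-147 came closer together, at 31 and 25 regions, while SKMEL-5 kept 20 and 501mel 3.

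**Figure D1:**
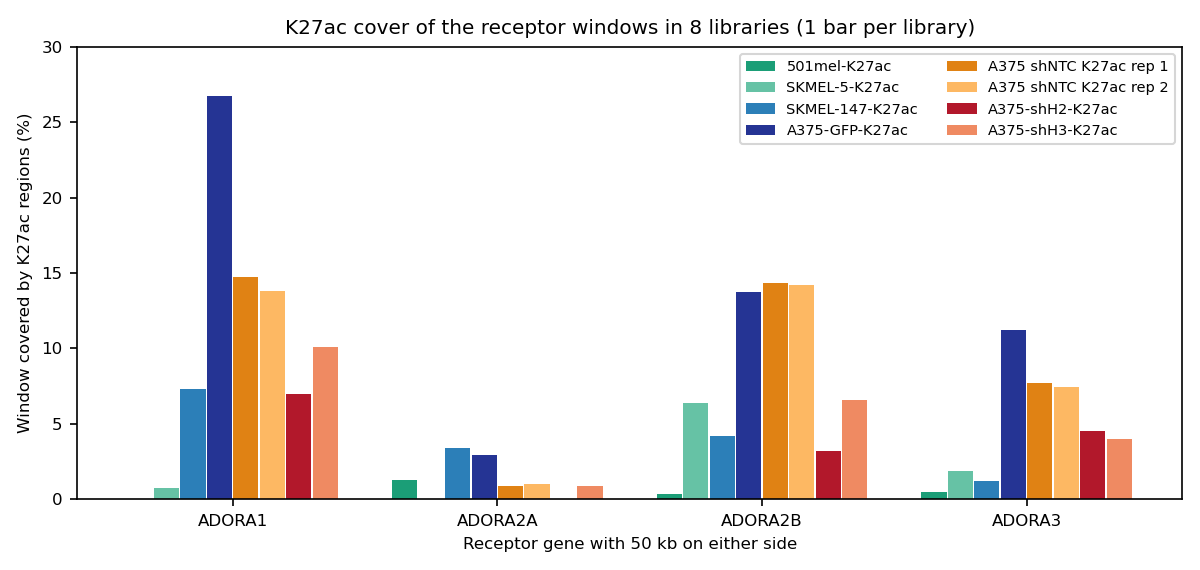
Share of each receptor window (the gene and 50 kb on either side, in %) covered by K27ac regions, 1 bar per library for 8 libraries. ADORA1 reached 26.8% in A375-GFP and had no bar in 501mel, ADORA2A reached at most 3.37% in the 8, and both hairpin libraries lay under both A375-shNTC replicates at ADORA1, ADORA2B and ADORA3.

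ADORA1, an inhibitory receptor, was the most widely acetylated of the 4 in A375-GFP. Its window had 40 K27ac regions in A375-GFP, 7 in SKMEL-147, 1 in SKMEL-5 and none in 501mel, covering 26.8%, 7.28%, 0.720% and 0% of it. At equal list length the counts were 12, 6, 1 and 0, so the order of the lines was the same and the gap between the first pair was smaller. The strongest A375-GFP region, at +24.7 kb inside the gene, had a fold of 14.1, and the strongest SKMEL-147 region lay at the same place, at +25.0 kb, with a fold of 8.78. Neither 501mel nor SKMEL-5 had K27ac anywhere in the ADORA1 gene body. The SKMEL-5 region lay at +62.6 kb, beyond MYBPH and CHI3L1, which share the window.

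ADORA2B, the low-affinity stimulatory receptor, was acetylated in 3 lines. Its window had 30 K27ac regions in A375-GFP, 17 in SKMEL-5, 15 in SKMEL-147 and 1 in 501mel, covering 13.7%, 6.39%, 4.22% and 0.315%. At equal list length SKMEL-5 had the most, 17, before SKMEL-147 with 13, A375-GFP with 11 and 501mel with 1, so the order of the first 3 lines by count turned with list length. By length covered it did not, at 22541 bp in A375-GFP, 14407 bp in SKMEL-5 and 8837 bp in SKMEL-147. SKMEL-5, a melanocytic line by its markers, held 7.54 regions per 100 kb at ADORA2B, more than 92.0% of protein-coding genes, beside a median of 1.89. Within the gene, the site at +14.1 kb was open in all 4 lines and acetylated in SKMEL-5, SKMEL-147 and A375-GFP. The strongest K27ac regions of SKMEL-147, centred at +13.6 kb (fold 9.15), and of A375-GFP, centred at +12.9 kb (fold 17.6), both overlapped that site. The strongest SKMEL-5 region lay just outside the other end of the gene model, at −97.2 kb, with a fold of 26.2. It covered the start site of the long non-coding RNA gene LOC105371557.

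ADORA2A, the receptor that restrains T cells, and ADORA3 carried less K27ac than the other receptors in A375-GFP, though not in every line. ADORA2A had 10 K27ac regions in A375-GFP, 6 in SKMEL-147, 3 in 501mel and 0 in SKMEL-5, covering at most 3.37% of its window. None of them lay in the gene body, and the strongest had folds of 4.58 in A375-GFP, 6.35 in SKMEL-147 and 3.33 in 501mel. With 10 regions its A375-GFP count equalled the median of all genes, 10. ADORA3 had 11, 3, 2 and 1 K27ac regions in A375-GFP, SKMEL-147, SKMEL-5 and 501mel. Most of its A375-GFP acetylation, which covered 11.2% of the window, formed a block just upstream of the start site and inside TMIGD3. The strongest region of that block, at −8.72 kb, had a fold of 11.1.

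Open chromatin was found at all 4 receptors in all 4 lines. ATAC regions numbered 64 in SKMEL-147, 55 in A375-GFP, 28 in 501mel and 23 in SKMEL-5, and between 95.7% (SKMEL-5) and 99% (SKMEL-147) of all protein-coding genes had at least 1, with 97.5% in 501mel and 98.3% in A375-GFP. At equal list length, 56333 regions, the counts came to 27 in SKMEL-147, 27 in A375-GFP, 19 in 501mel and 23 in SKMEL-5. ADORA1 had 21 ATAC regions in A375-GFP, or 15.0 per 100 kb, above 98.7% of genes and beside a median of 5.95. It had 16 in SKMEL-147, 10 in 501mel and 7 in SKMEL-5. ADORA2B had 23 in SKMEL-147, 18 in A375-GFP, 9 in SKMEL-5 and 8 in 501mel. The counts at ADORA2A were 14, 10, 4 and 4, and those at ADORA3 were 11, 6, 3 and 6, in that order of lines.

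Merged over the lines, the ATAC regions made 84 open sites at the receptors, 25 at ADORA1, 17 at ADORA2A, 28 at ADORA2B and 14 at ADORA3. Of these, 36 were open in 1 line, 24 in 2, 11 in 3 and 13 in all 4, or 15.5% in all 4, beside 14.7% of all open sites. Sites open everywhere lay at ADORA1 (4), ADORA2B (6) and ADORA3 (3), and ADORA2A had none among its 17. The ADORA1 sites were at −9.81, +17.1, +44.7 and +88.7 kb, and the ADORA3 sites at +21.8, −4.42 and −32.2 kb. The ADORA2B sites were at −116.1, −97.1, −24.2, +14.1, +54.6 and +69.1 kb, of which that at +54.6 kb is the common start region of ZSWIM7 and TTC19, neighbours in its window. K27ac of 501mel overlapped none of the 13, and its share over all sites open in 4 lines was not taken, so that count has no comparison. Of the 13, 5 had K27ac in none of the 4 lines, 38.5% beside 34.4% of all sites open in 4 lines.

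**Figure D2:**
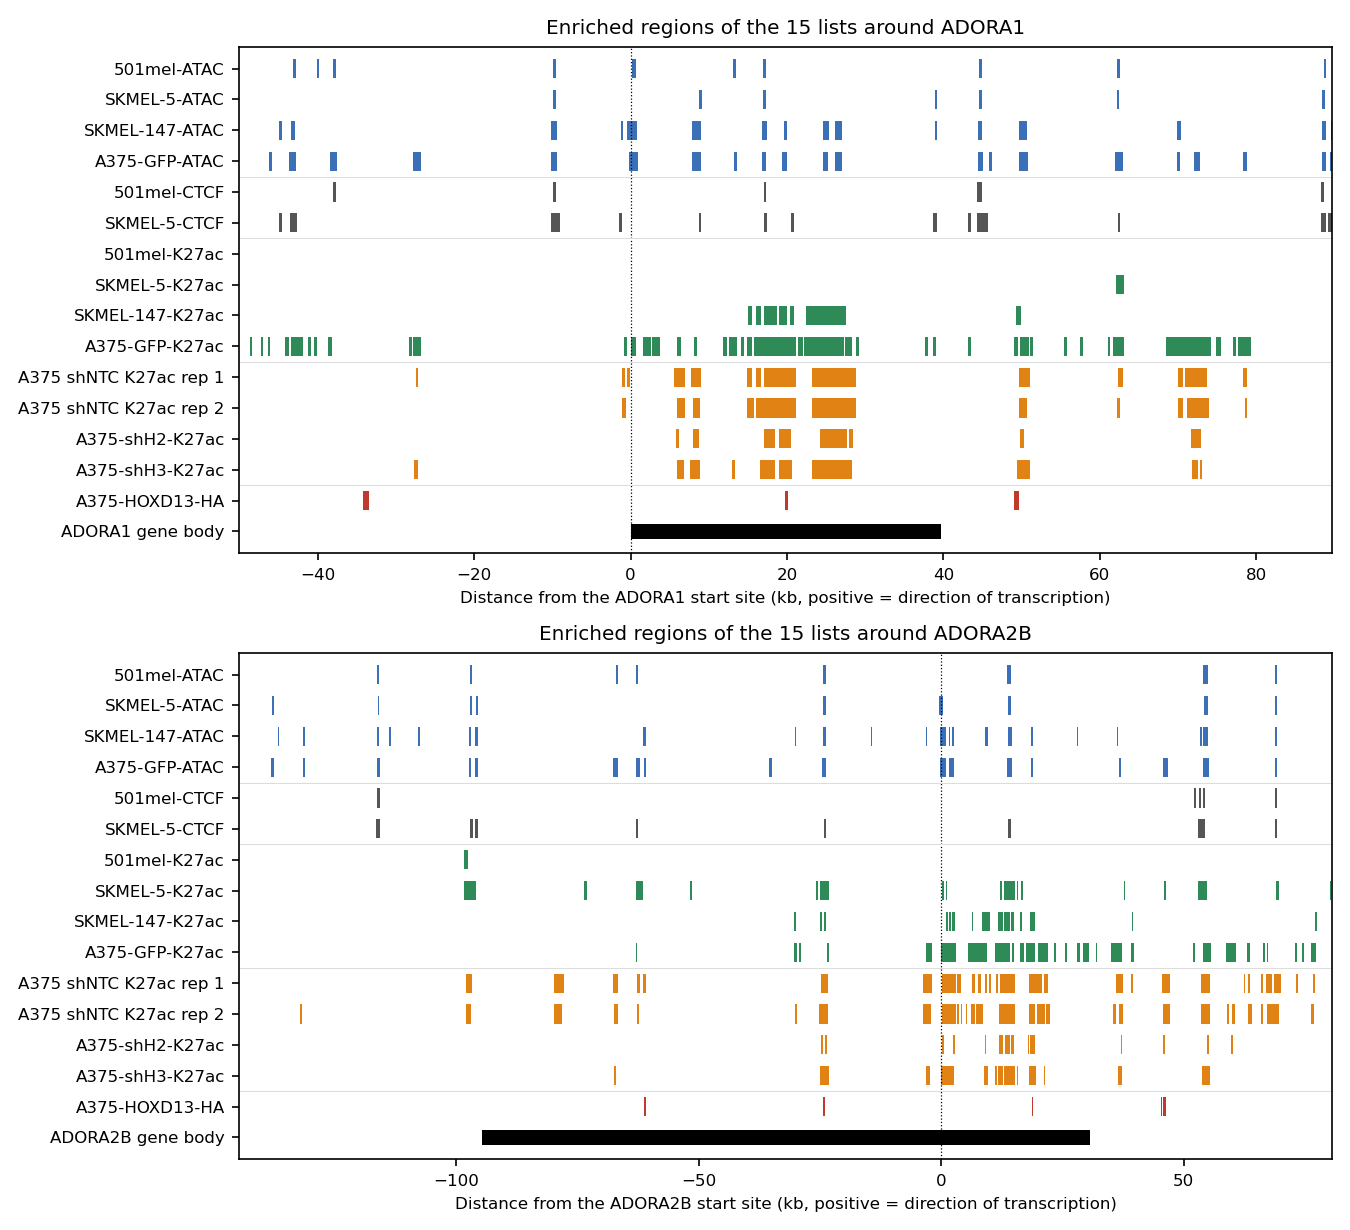
Regions of the 15 lists (rows) along ADORA1 (upper panel) and ADORA2B (lower panel), by distance from the start site in kb, with the gene body as a black bar and colours by assay. K27ac around +24.7 kb of ADORA1 appears in SKMEL-147 and every A375 library, and K27ac of SKMEL-5, SKMEL-147 and every A375 library meets around +13.6 kb of ADORA2B.

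The start sites themselves fell into 3 kinds. The ADORA2B start site was open in SKMEL-5, SKMEL-147 and A375-GFP and not in 501mel, and K27ac lay within 1 kb of it in SKMEL-5, A375-GFP, both A375-shNTC replicates and both hairpin libraries. Its merged open site, chr17:15944738-15946162, spans the whole printed ADORA2B window. An ATAC region lay within 1 kb of the ADORA1 start site in 501mel, SKMEL-147 and A375-GFP and not in SKMEL-5. The merged open site, chr1:203127285-203128674, spans the printed ADORA1 window, but the 501mel region, at +0.498 kb, lies downstream of the start site and does not reach that window. K27ac lay within 1 kb of the ADORA1 start site in A375-GFP and both A375-shNTC replicates and in neither hairpin library. The lower gene end of ADORA2A had an ATAC region within 1 kb in the same 3 lines as ADORA1, and it had no K27ac within 1 kb in any of the 8 libraries. The ADORA3 start site had no region within 1 kb in any of the 15 lists. For comparison, 73.5% of protein-coding start sites had an ATAC region within 1 kb in A375-GFP, 72.5% in SKMEL-147, 66% in 501mel and 59.2% in SKMEL-5. For K27ac it was 58.5% and 57.1% in the A375-shNTC replicates, 41.1% in A375-shH2 and 52.2% in A375-shH3.

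**Figure D3:**
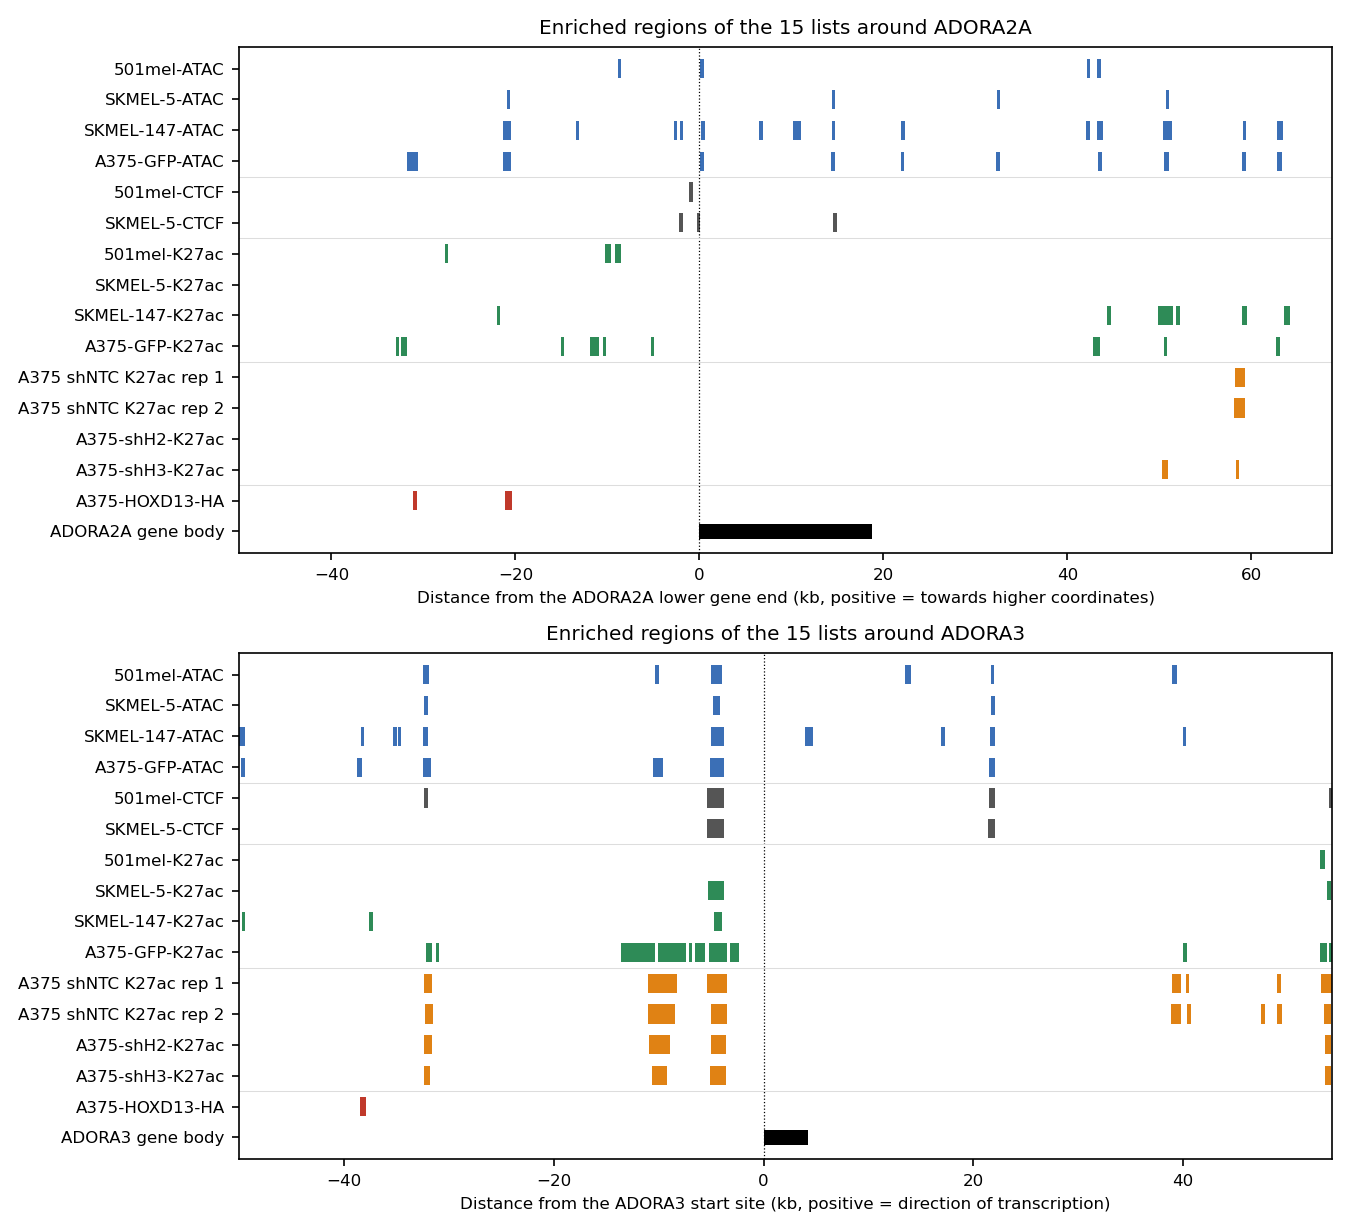
Regions of the 15 lists (rows) along ADORA2A (upper panel) and ADORA3 (lower panel), by distance in kb from the lower gene end of ADORA2A and the start site of ADORA3, with the gene body as a black bar and colours by assay. ADORA2A has no K27ac region in its gene body in any library, and at ADORA3 the regions of several assays stack up at −4.41 kb while the start site is empty.

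CTCF, which anchors chromatin loops and insulates neighbouring genes, had 15 regions at the receptors in 501mel and 26 in SKMEL-5. All 4 genes had at least 1 in both lines, beside 88.9% and 93.5% of protein-coding genes. Of the 501mel regions, 11 of 15 were shared with SKMEL-5, 73.3% (95% Wilson interval 48.0 to 89.1), beside 76.9% of its whole list. Of the SKMEL-5 regions, 9 of 26 were shared with 501mel, 34.6% (19.4 to 53.8), beside 58.3%. These intervals, like the others here, cover counting error only. Merged, the 2 lists made 10 sites common to both lines, 4 at ADORA1, 3 at ADORA2B, 3 at ADORA3 and 0 at ADORA2A. A further 4 sites were in the 501mel list alone and 17 in that of SKMEL-5, 9 of them at ADORA1.

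All 10 common CTCF sites were open in the 4 lines, beside 54.6% of common sites over the genome. From the other side, 10 of the 13 sites open in 4 lines overlapped CTCF of 501mel, beside 55.6% of all such sites, and 12 overlapped that of SKMEL-5, beside 61.9%. Both lines had CTCF at 9 of the 13, 69.2% (42.4 to 87.3) beside 48.7%. The strongest common site by SKMEL-5 fold lay in the +44.7 kb open site of ADORA1, inside MYBPH, with folds of 16.4 in 501mel and 34.1 in SKMEL-5, and it had no K27ac in any library. The common ADORA3 site at −4.61 kb, with folds of 23.8 and 15.3, lay inside the acetylated block described above. The lower gene end of ADORA2A had CTCF within 1 kb in each line at different places, at −0.916 kb in 501mel (fold 7.64) and −0.158 kb in SKMEL-5 (fold 4.54), beside 32.8% and 38.1% of protein-coding start sites with CTCF that near. No CTCF library of A375 or SKMEL-147 was at hand.

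HOXD13, a homeobox transcription factor of limb and genital development, was mapped through its HA tag in A375 cells. All 4 receptors had at least 1 HOXD13-HA region, beside 60.2% of protein-coding genes, and the 11 regions divided into 5 at ADORA2B, 3 at ADORA1, 2 at ADORA2A and 1 at ADORA3. Per 100 kb of window this came to 2.22, 2.15, 1.68 and 0.960 regions, beside a median of 0.731, and exceeded the density of 89.5%, 88.9%, 79.9% and 65.0% of genes. None of the 11 lay within 1 kb of a receptor start site, and 3.18% of protein-coding start sites had such a region. The median fold was 4.27 (1.86 to 8.31), beside 3.93 (1.58 to 40.2) in the whole list. The HA library of A375-GFP was not analysed here, so the HA signal without HOXD13 is not shown.

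The strongest HOXD13-HA region, at chr1:203093485-203094283 and −33.8 kb of ADORA1, had a fold of 8.31, above 96.0% of the list. It lay between genes and overlapped no ATAC, K27ac or CTCF region of any library. The region at +49.3 kb, with a fold of 6.35, lay within 1 kb of the MYBPH start site and overlapped K27ac of SKMEL-147, A375-GFP and A375-shH3 but no ATAC region. Inside ADORA1 itself, the region at chr1:203147488-203147709 and +19.9 kb had a fold of 3.16. It was open in SKMEL-147 and A375-GFP and acetylated in SKMEL-147 and all 5 A375 K27ac libraries.

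The 5 HOXD13-HA regions of ADORA2B had folds of 3.78 at −61.2 kb, 1.86 at −24.2 kb, 2.35 at +18.8 kb, 5.12 at +45.4 kb and 4.17 at +46.1 kb. The first 3 lay inside the ADORA2B gene model and the others inside ZSWIM7. The lowest by fold of all 11, at chr17:15920813-15921116, was below nearly the whole list, and it sat in a site open in all 4 lines with CTCF in SKMEL-5. The region at +18.8 kb, chr17:15963801-15964087, was open in SKMEL-147 and A375-GFP and acetylated in SKMEL-147 and all 5 A375 libraries. It and the region inside ADORA1 were the 2 of 11 that were both open and acetylated in A375-GFP, beside 14.8% of the list.

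Both HOXD13-HA regions of ADORA2A lay inside SPECC1L, at −30.9 kb (fold 4.27) and −20.7 kb (fold 6.74). The first was open in A375-GFP and the second in SKMEL-5, SKMEL-147 and A375-GFP, and neither had K27ac in any library. The 1 region of ADORA3, at chr1:111541560-111542118 and −38.2 kb (fold 6.44), lay within 1 kb of the RAP1A start site and was open in SKMEL-147 and A375-GFP without K27ac. At the edge of the windows, the farthest region inside was 33.8 kb from ADORA1 (fold 8.31), 30.9 kb from ADORA2A (4.27), 15.5 kb from ADORA2B (4.17) and 38.2 kb from ADORA3 (6.44). The nearest outside was 72.3 kb (3.81) from ADORA1, 110.7 kb (4.80) from ADORA2A and 60.2 kb (3.30) from ADORA3, and ADORA2B had none out to 200 kb.

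**Figure D4:**
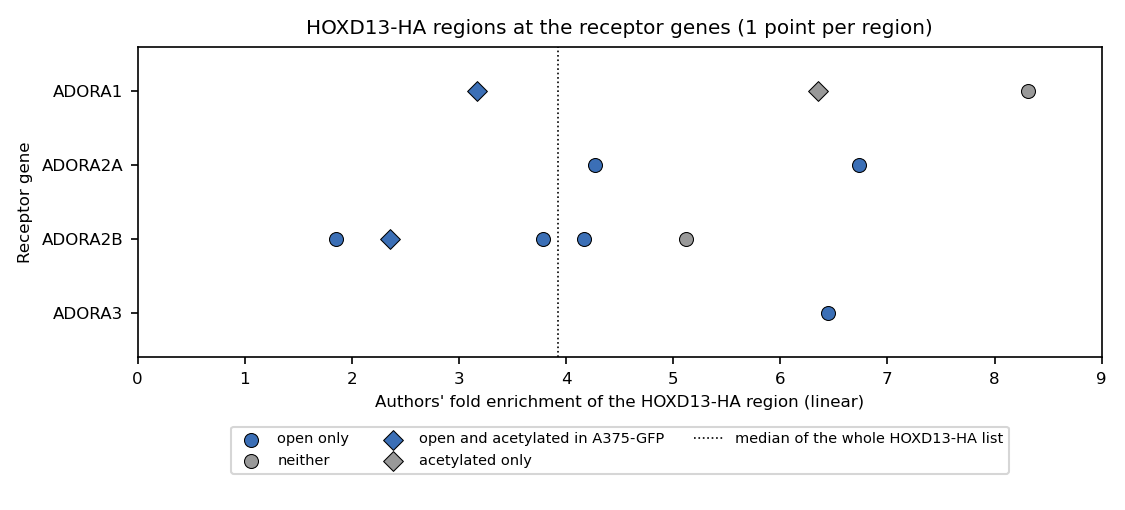
The 11 HOXD13-HA regions by receptor gene (rows) and the authors' fold enrichment on a linear axis, with blue for regions open in A375-GFP, diamonds for regions acetylated there, and the dotted line at the median of the whole list, 3.93. Of the 11 points 8 are blue, and the highest fold, 8.31 at ADORA1, is neither open nor acetylated.

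Across the receptors, 8 of the 11 HOXD13-HA regions overlapped A375-GFP ATAC, 72.7% (43.4 to 90.3), beside 34.1% of the list. For K27ac of A375-GFP it was 3 of 11, 27.3% (9.75 to 56.6), beside 22.2%, and for both A375-shNTC replicates 4 of 11 beside 24.9%. SKMEL-147 ATAC overlapped 6 of 11 beside 33.3%, SKMEL-5 ATAC 2 beside 10.3% and 501mel ATAC 1 beside 15.6%. No region outside A375-GFP ATAC was open in another line, so 8 of 11 also held for the 4 lines together, beside 44.4%. CTCF of SKMEL-5 overlapped 1 (beside 5.22%) and that of 501mel 0 (beside 4.85%).

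K27ac at ADORA1, ADORA2B and ADORA3 was listed less widely in the hairpin libraries than in A375-shNTC, as it was over the genome. ADORA2B had 28 and 28 regions in the 2 A375-shNTC replicates, 14 in A375-shH2 and 13 in A375-shH3, covering 14.4%, 14.2%, 3.20% and 6.56% of its window. ADORA1 had 14, 11, 8 and 10 regions, covering 14.8%, 13.8%, 7.00% and 10.1%. ADORA3 had 7, 8, 4 and 4, covering 7.68%, 7.42%, 4.55% and 4.02%. Both hairpin libraries lay below both replicates in cover at these 3 genes. ADORA2A, with 1 region in each replicate, had 0 in A375-shH2 and 2 in A375-shH3. Among all protein-coding genes, 88.9% and 88.7% had a region in the replicates, 79.9% in A375-shH2 and 85.2% in A375-shH3. The hairpin lists were shorter as a whole, with 43634 and 51838 regions against 85977 and 80242, and covered 36.8 and 49.2 Mb of the genome against 103 and 98.4 Mb. In both hairpin libraries, cover fell by a smaller share at ADORA1 and ADORA3 than over the genome, and by a larger share at ADORA2B. The part of list length in these counts and cover was not tested.

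The 2 A375-shNTC replicates shared 38 K27ac regions at the receptors. Of these 18 were in neither hairpin list, called lost here, 47.4% (32.5 to 62.7) beside 37.1% of all shared regions. Kept in both hairpin lists were 16, with 1 in A375-shH2 alone and 3 in A375-shH3 alone. Lost regions were 10 of 19 at ADORA2B, 5 of 11 at ADORA1, 3 of 7 at ADORA3 and 0 of 1 at ADORA2A. A lost region was present at 3 of the 4 receptors and at 70.7% of protein-coding genes. No region was gained, meaning present with both hairpins and absent from both replicates, beside 1.85% over the genome.

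**Figure D5:**
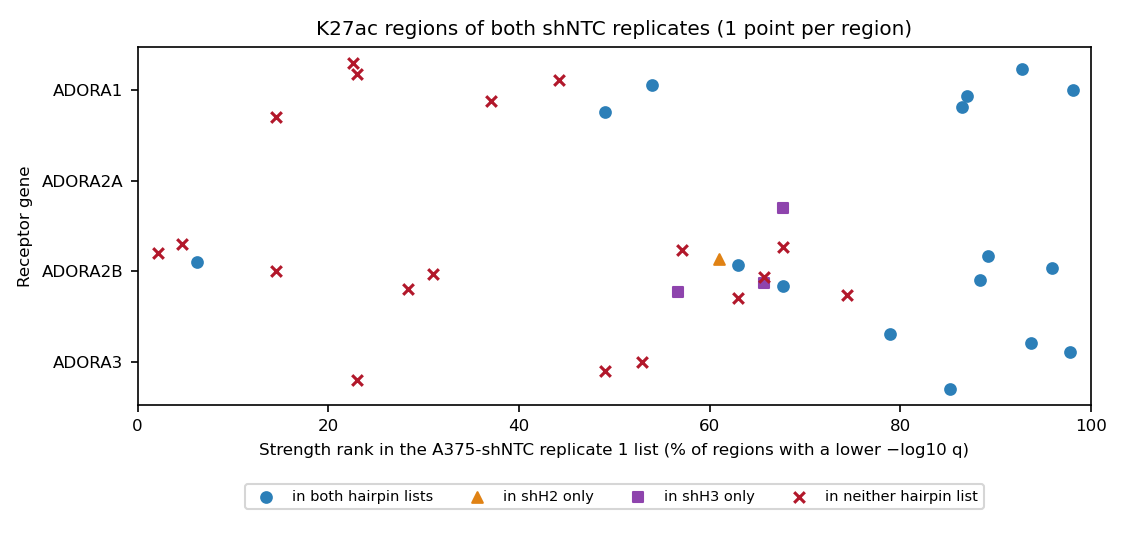
The 38 K27ac regions shared by both A375-shNTC replicates, by receptor gene (rows, points spread vertically for legibility) and by the percentage of the replicate 1 list with a lower −log10 q; the marker gives the hairpin lists that hold the region. Crosses, in neither list, reach up to 74.4%, and the circles, in both lists, have a median of 86.7%.

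Lost regions were the weaker and narrower ones. They ranked at a median of 34.0% of the replicate 1 list (2.10 to 74.4) and were 774.5 bp wide at the median, against 86.7% (6.20 to 98.2) and 1975 bp for those kept in both. In 3 classes of strength, 11 of 12, 6 of 14 and 1 of 12 were lost from the weakest to the strongest, beside 73.3%, 36.6% and 4.06% over the genome. Regions open in A375-GFP were lost in 6 of 24 cases, 25% beside 21.4%, and those not open in 12 of 14, 85.7% beside 80.4%. None of the 4 that overlapped HOXD13-HA was lost, beside 19.4% over the genome, and 18 of the 34 without it were, 52.9% beside 39.3%. With 4 regions, a share up to 49.0% lies within the interval.

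With the 4 lists held to their strongest 43634 regions, 23 regions were still shared by the replicates and 7 of them were lost, 30.4% beside 16.4%. ADORA2B accounted for 6 of its 13 and ADORA2A for its 1. At ADORA2B, 5 of the 10 regions lost from the full lists were lost again, at −97.4, −78.8, +3.68, +66.1 and +68.6 kb. The sixth, at −67.1 kb, and the ADORA2A region were in the full A375-shH3 list and fell below its shortened end. None of the 5 lost regions of ADORA1 or the 3 of ADORA3 was strong enough to be among the shared regions of the shortened lists. The 5 regions left at ADORA1 and the 4 at ADORA3 had 0 losses, which bears only on those stronger regions.

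At ADORA2B the strongest lost region, at −78.8 kb inside the gene model, had folds of 7.20 and 5.92 in the 2 replicates. The region at +68.6 kb inside TTC19 had 6.93 and 5.74, and that at +3.68 kb, just downstream of the start site, had 6.65 and 6.02. The region nearest the start site, centred at +1.62 kb and beginning downstream of it, was kept. It had folds of 12.9 and 11.7 in A375-shNTC and 6.19 in A375-shH3. In A375-shH2 only small regions were listed there, with folds of 3.64 at +0.409 kb and 3.26 at +2.51 kb. All these hairpin values lay below both replicates, within lists whose fold scales may differ. The strongest ADORA2B region, chr17:15957092-15960274 at +13.6 kb, had folds of 20.6 and 14.8, and of 17.0 and 22.4 in A375-shH2 and A375-shH3, so the hairpin values did not separate from the replicates. The region at −24.2 kb, which overlaps the HOXD13-HA region there, had 7.07 and 7.14, then 5.52 in A375-shH2 and 15.7 in A375-shH3, on either side of the replicates. In A375-shH2 the listed K27ac lay on both sides of that HOXD13-HA region and did not overlap it.

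At ADORA1 the strongest region of the gene, chr1:203150866-203156590 and 5725 bp wide, had folds of 26.2 and 26.1 in A375-shNTC, 9.58 in A375-shH2 and 17.8 in A375-shH3. Its neighbour at +18.6 kb, which holds the HOXD13-HA region inside ADORA1, had 7.90 and 9.57, then 7.57 and 7.29. The small region just before the start site, at −0.874 kb, had 3.48 and 3.79 and was in neither hairpin list. It ranked above 14.5% of the replicate 1 list, so it stood near the bottom of the range of strength. Beyond CHI3L1, the region at +72.4 kb had folds of 15.5 and 13.8, then 5.31 and 6.42. Fold scales may differ between lists. By rank within each list, the strongest region stood above 98.2% and 98.4% in the replicates, 88.9% in A375-shH2 and 96.3% in A375-shH3. The region at +72.4 kb stood above 92.8% and 91.9%, then 62.9% and 65.0%.

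At ADORA3 the strongest region, chr1:111507084-111509010 at −4.41 kb over the common CTCF site, had folds of 25.7 and 19.1 in A375-shNTC, 11.1 in A375-shH2 and 18.9 in A375-shH3. The last value lay just under the lower replicate, so A375-shH3 did not stand apart there. By rank within each list, that region stood above 97.8% and 96.8%, then 91.7% and 96.2%. The region at −9.63 kb had folds of 17.1 and 17.6, then 10.9 in A375-shH2 and 3.55 in A375-shH3. It ranked above 93.7% and 94.6%, then 94.2% and 35.3%. The region at −32.0 kb had folds of 9.00 and 9.09, then 4.83 and 2.26, and ranks of 78.9% and 79.4%, then 67.1% and 0.710%. Fold scales may differ between lists. The 3 lost regions lay on the other side of the gene, at +39.3, +40.5 and +49.2 kb, with folds of at most 4.93. The 1 shared region of ADORA2A, at +58.7 kb inside ADORA2A-AS1, had folds of 6.93 and 5.46, was not in the A375-shH2 list and had 3.82 in A375-shH3.

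A375-GFP and A375-shNTC did not list the same acetylation at every receptor. At ADORA1, 13 of the 14 regions of A375-shNTC replicate 1 and all 11 of replicate 2 overlapped A375-GFP K27ac, while 14 of 40 A375-GFP regions overlapped replicate 1. At ADORA2A none of the 10 A375-GFP regions overlapped either replicate. Over the whole lists, 63.6% of replicate 1 overlapped A375-GFP, and 49.8% of A375-GFP overlapped replicate 1. The loss counts above use A375-shNTC, and the comparison of lines uses A375-GFP.

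Of 49 other genes of the adenosine pathway, 34 had a HOXD13-HA region in the same kind of window, 69.4% beside 60.2% of all genes. Enzymes and transporters that make, break down or move adenosine gave 14 of 23, and the G proteins, adenylyl cyclases, kinases, CREB factors and phosphodiesterases that act behind the receptors gave 20 of 26. Among the second group, the adenylyl cyclase ADCY5 had the highest fold, 12.3, followed by the cyclic AMP phosphodiesterase PDE4D at 8.23 and the inhibitory G protein subunit GNAI1 at 8.07. PDE4D had 40 regions, in a window of 1653 kb. The nucleoside transporter SLC28A2 reached 7.52, PDE4B 6.98 and the cyclase ADCY6 6.73. NT5E, which encodes CD73, the enzyme that makes adenosine from AMP, had 2 HOXD13-HA regions with a highest fold of 3.76. Its K27ac regions numbered 1 in 501mel, 1 in SKMEL-5, 16 in SKMEL-147 and 16 in A375-GFP, so SKMEL-147 and A375-GFP had the higher counts, as at ADORA1. Summed over the 49 gene windows, shared A375-shNTC K27ac regions numbered 441. Some of these windows overlap, so a region may be counted more than once. Of the 441, 33.3% were lost, beside 37.1% of all shared regions.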

How the data were processed

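The deposited files analysed were 15 lists of enriched regions from 4 melanoma lines. Not analysed here were 6 further samples, the A375-GFP HA library and 5 with IgG. Per the submitters' processing notes, the tools were MACS2, Bowtie2, deepTools, SAMtools and Trim Galore, on hg38; versions, settings and control libraries are not given in the sources used here. The extraction protocol in the labels describes RNA and RNA-seq libraries, not these assays. Each list, as deposited by the authors, holds a score, a fold enrichment (a ratio to the caller's background), and −log10 p and −log10 q values. Fold and −log10 q described and ranked regions within a list, and the score was not used. Every list ended near a −log10 q of 1.3. Read depth is unknown, so list length stands in for it. Regions off the autosomes and X, 0 to 3266 per list, were left out.

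Genes, names and start sites came from RefSeq tables (GRCh38). The promoter table has ADORA1, ADORA2B and ADORA3, 3 of the 4 receptors. The gene table gives no exons, so exons and introns were not told apart. Regions overlapped when they shared at least 1 bp. Lost and gained were list memberships of A375-shNTC (both replicates) against A375-shH2 and A375-shH3. Shares carry 95% Wilson intervals, which treat regions as independent. Python 3.11.15, numpy 2.4.6, SciPy 1.17.1 and matplotlib 3.10.9 were used. Overlap, window counting and merging of regions were tested on simulated data. The receptors were all named. Of 49 pathway genes, the 6 with the highest HOXD13-HA fold and NT5E were named, with up to 3 protein-coding neighbours per receptor. The members and lists were chosen with earlier results of these data known. Alternatives were windows of 10 and 100 kb, a −log10 q of at least 10, overlap of at least 50%, equal list lengths, each replicate or hairpin alone, and an ADORA2B window from its start site, the last chosen after seeing the data.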

Additional observations from a re-analysis of the deposited data

How the results depend on the processing

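Of 77 alternative values, 47 stayed within 1.5 times the reported count and 30 did not. With 10-kb windows the receptors had 5 HOXD13-HA regions, 4 of them open in A375-GFP, 8 lost K27ac regions of 21, and 4 shared CTCF sites. K27ac then numbered 3 in 501mel and 47 in A375-GFP, and ATAC 14 in 501mel, 12 in SKMEL-5, 35 in SKMEL-147 and 26 in A375-GFP. With 100-kb windows 501mel ATAC came to 46, A375-GFP K27ac to 140 and shared CTCF sites to 17. At a −log10 q of at least 10 there were 6 HOXD13-HA regions, 3 of them open, and 3 of 14 shared K27ac regions were lost. K27ac was then 0 in 501mel, 6 in SKMEL-5, 5 in SKMEL-147 and 19 in A375-GFP, SKMEL-5 ATAC was 11, and 16 pathway genes had a HOXD13-HA region. With the A375-shNTC and hairpin lists at equal length, 7 of 23 regions were lost and 1 was gained, at +9.26 kb of ADORA2B, in a site that the full replicate 1 list holds. With the lines at equal length, K27ac was 3 in 501mel and 31 in A375-GFP, and ATAC was 27 in SKMEL-147 and 27 in A375-GFP. Leaving out A375-shNTC replicate 1 gave 26 lost regions of 48, and leaving out replicate 2 gave 25 of 50, beside 18 of 38 with both. Gained regions were then 1 and 0, and A375-shH3 alone gave 3 gained. Genome-wide shares under the same settings are not given here, other than the 16.4% lost at equal list length. The other alternative counts, of lost and gained regions and of pathway genes, therefore have no comparison. No paired analysis was possible because every library but A375-shNTC is single and no test was run. The cause of these shifts was not tested, beyond what fewer or shorter lists and smaller windows remove by construction. Depth is unknown, and a region missing from a list is not a measured absence.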

Other observations

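At the receptors, the A375-shH3 list held 3 K27ac regions that overlapped neither A375-shNTC replicate, and the A375-shH2 list held 0. They lay at +13.1 kb of ADORA1 (fold 3.70), +15.7 kb of ADORA2B (fold 3.82) and +50.6 kb of ADORA2A (fold 5.70). The share of each whole hairpin list that overlaps neither replicate is not given here, so these counts have no comparison. The A375-shH3 list is also the longer, with 51838 regions against 43634 in A375-shH2. The ADORA1 and ADORA2A regions also overlapped K27ac of A375-GFP, and the ADORA2B region did not. The ADORA2A region lies inside ADORA2A-AS1, in a site that was open in SKMEL-5, SKMEL-147 and A375-GFP and acetylated in SKMEL-147.

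Some neighbours of the receptors had acetylated start regions of their own in A375. The common start region of ZSWIM7 and TTC19, at +54.6 kb of ADORA2B, had folds of 13.4 and 10.9 in the A375-shNTC replicates, 4.99 in A375-shH2 and 7.19 in A375-shH3. The start of ATP5PB, which encodes a subunit of mitochondrial ATP synthase, lies in the ADORA3 window at +53.7 kb and had 11.3, 11.0, 7.80 and 6.43. The RAP1A start, in the same window, was open in SKMEL-147 and A375-GFP and had a HOXD13-HA region within 1 kb. No K27ac region overlapped that HOXD13-HA region, but SKMEL-147 had a K27ac region (fold 3.24) within 1 kb of the RAP1A start. How far regions near such starts bear on the receptors was not tested, and fold scales may differ between the lists compared.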
